A study of Mus musculus with 4 samples.

Results

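The expressed solute carrier genes of large intestinal (LI) Treg cells were chosen from the deposited FPKM table by name and by level. A gene was taken when its symbol started with Slc and a digit and its mean FPKM over the 4 libraries was at least 5. FPKM counts mapped fragments scaled by transcript length and by the size of the library, so levels of different genes can be compared. Of 53379 genes in the table, 379 had such a symbol and 108 of these reached the level. Leaving out 5 glucose, lactate and iron transporters by name and 3 pseudogene or opposite-strand entries gave 100 genes. The mean over all 4 libraries chose them, so their levels are a description. The difference between the groups was not a criterion, but 3 genes reached the mean through 1 group alone, Slc39a10 through KO (4.40 in control) and Slc12a4 and Slc25a22 through control (4.16 and 4.63 in KO). All 100 were among the 7639 protein-coding genes tested.

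Solute carriers are membrane proteins that move amino acids, sugars, nucleotides, vitamins, metals and ions down or against their gradients, at the plasma membrane and at the membranes of mitochondria, the Golgi and lysosomes. T cells raise the import of amino acids when they are activated, and the lysosomal membrane senses the incoming amino acids to switch on mTORC1. Treg cells rely largely on mitochondrial oxidation, which needs carriers of the mitochondrial inner membrane for phosphate, nucleotides and substrates.

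The study removed Setd2, an enzyme that trimethylates histone H3 at lysine 36, from Treg cells, and the comparison asks which transcripts differ without it. The cells, gated as CD3+ CD4+ and YFP+, came from large intestines of adult C57BL/6 mice (6 to 12 weeks by the general methods of the study) at steady state, with 2 libraries of control mice (Foxp3 Cre-YFP Setd2 f/+) and 2 of KO mice (Foxp3 Cre-YFP Setd2 f/f). Both groups carried the Foxp3-driven Cre, which acts in Treg cells, and the controls had 1 floxed Setd2 allele. Each library was a pool of 2 to 3 littermate mice, with about 200000 cells by the design text of the series; the methods of the study give a larger number. The gene-level FPKM of Setd2 was 38.2 and 27.4 in the control and 26.3 and 36.3 in the KO libraries; it sums all exons, does not resolve the deleted ones and so checks no label. Treg markers were high, with Tnfrsf18 between 1899 and 2218 FPKM, while Foxp3 was listed at 2.62 to 5.61. Of 7 Treg markers 6 were tested, with 1 higher in KO and 1 lower at an unadjusted limma p below 0.05. Over all genes tested 8.61% were higher and 7.57% lower. Ctla4 went from 1593 and 1701 in control to 2160 and 2310 in KO (higher). Ikzf2 went from 120.75 and 115.57 to 84.12 and 98.36 (lower). Il2ra, at 183.66 and 180.37 in control and 152.14 and 162.77 in KO, was not called. Of 12 epithelial markers, 9 were below 1 FPKM in every library, while Epcam went from 28.65 and 30.81 in control to 19.58 and 21.13 in KO (lower at an unadjusted p below 0.05), Krt18 from 4.23 and 4.52 to 7.22 and 7.18 (higher), and Lgals4 ran from 11.02 to 20.12; the sum of the 12 was between 43.2 and 48.6 in the 4 libraries. Krt18 was tested only because of its KO level, so a difference was built into its being tested. Of 10 myeloid markers 5 were below 1, S100a9 and Clec9a at 0. Lyz2, however, was between 127.8 and 168, Cd14 between 32.4 and 41.96 and Cd68 between 21.36 and 31.01, none of them called. Of 8 stromal and endothelial markers 6 were below 1, and Pecam1, which leukocytes also express, was higher in KO (34.65 and 36.26 against 49.25 and 42.72). Igkc, of plasma cells, was between 753 and 1171. The part of other cells in the results below was not tested. The files keep no read depth, so no counting error can be given. In bulk samples, fewer cells of a type and less RNA per cell cannot be told apart.

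The levels of the 100 genes ran from 5.04 to 1155 FPKM, with a median of 14.2 against 23 over all genes tested. There were 7 genes at 100 FPKM or more, 59 between 10 and 100, and 34 below 10. The leading 3, Slc3a2, Slc25a3 and Slc25a5, made up 52.3% of the summed FPKM of the group. By class, the 21 mitochondrial carriers held 48.6% and the 12 amino acid carriers 25.6%, followed by 16 nucleotide sugar and Golgi carriers with 6.36% and 13 zinc carriers with 5.51%. At the edge of the choice, Slc12a4 (5.04), Slc35e1 (5.26) and Slc2a8 (5.45) were just inside, and Slc25a24 (4.90), Slc9a7 (4.86) and Slc11a1 (4.79) just outside. Slc9a3r1 and Slc4a1ap are adaptor proteins named for a carrier and transport nothing themselves; they are described apart.

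**Figure D1:**
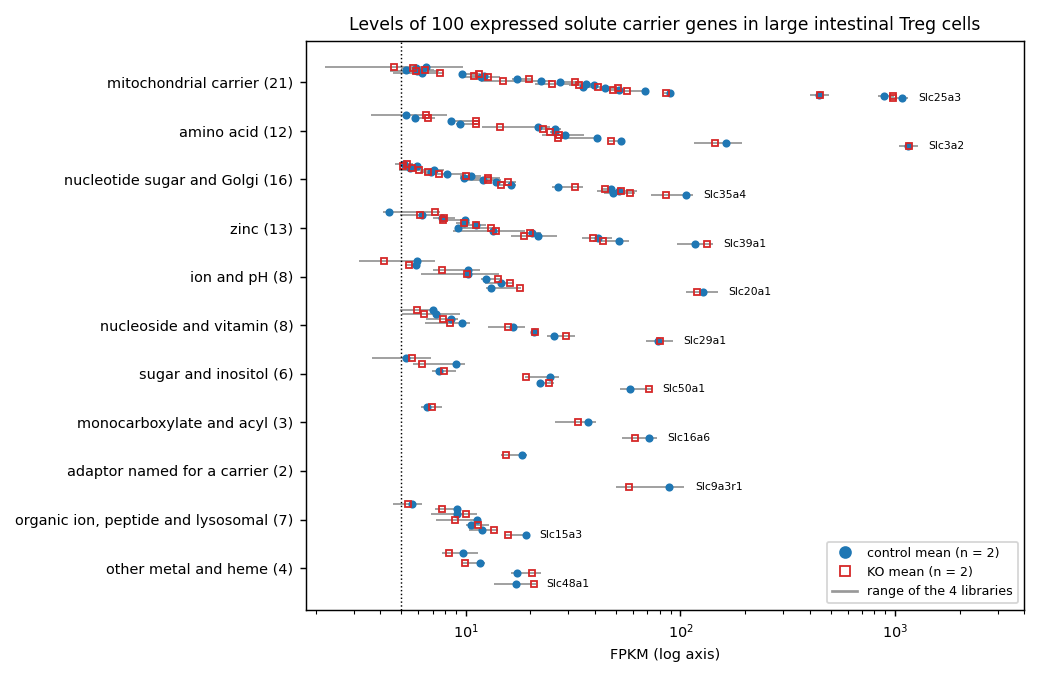
Level in FPKM (log axis) of each of the 100 genes, with 1 line per gene spanning the 4 libraries, filled circles for the control mean and open squares for the KO mean (n = 2 each), grouped by class with the number of genes in brackets; the dotted line is at 5. Slc3a2 stands near 1155 FPKM and the mitochondrial and amino acid classes hold the highest genes, with the means of both groups close together in nearly every line.

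Few of the solute carriers differed between the KO and control pools. With a threshold of 0.05 on the unadjusted p, as the study used, 3 of the 100 were higher in KO (Slc39a9, Slc39a10 and Slc9a9), against 8.61% of all genes tested, and 5 were lower (Slc7a6, Slc7a1, Slc25a25, Slc25a39 and Slc9a3r1), against 7.57%. Together 8 of 100 were called, while 16.2% of all genes tested were. At an adjusted limma p below 0.05 none of the 100 was called, against 0.589% of all genes tested (24 higher and 21 lower), and the smallest adjusted p of a solute carrier was 0.10. Both KO libraries lay above both control libraries for 20 genes, against 24.2% of all genes tested, and below them for 24, against 22.9%. The median log2 fold change was -0.05, beside 0.00 over all genes tested, and turned positive without control 2 (0.01) or KO 2 (0.08). Single values ran from -0.60 to 0.59. The median size of the difference was 0.18 on the log2 scale in the solute carriers and 0.18 over all genes tested. The tests were made with limma on log2(FPKM + 1) and measure the spread between pools. With 2 libraries against 2, an exact two-sided permutation test for 1 gene could not give less than p = 0.333. Below, a gene is called, and said to have risen or fallen, when its unadjusted limma p was below 0.05; the p printed beside it is the adjusted one.

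The precision limits what a missing call means. The 95% confidence interval of a difference had a median half-width of 0.44 log2 units, and for 93 of the 100 genes the whole interval lay within 1 log2 unit of no difference. For 71 of the genes the gap between the pools of 1 group was larger than the difference between the groups, against 64.7% of all genes tested.

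**Figure D2:**
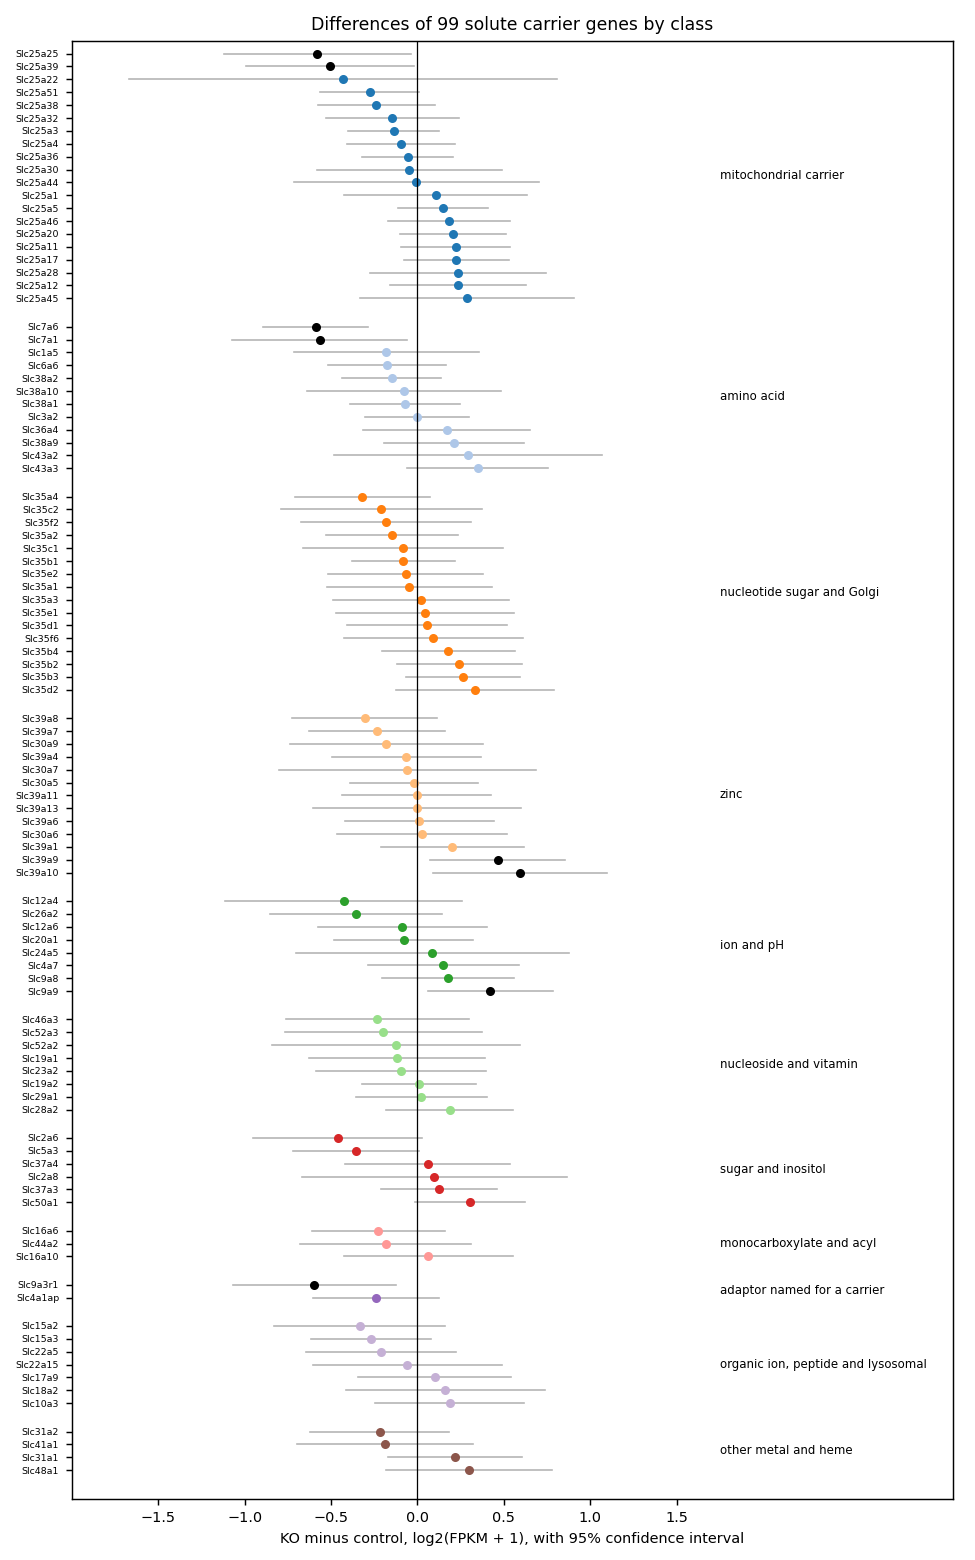
Difference between KO and control on the log2(FPKM + 1) scale for 99 of the 100 genes (points) with its 95% confidence interval from limma (lines), by class; black points are the 8 genes with an unadjusted p below 0.05. All points lie between -0.60 and 0.59, and the zinc class has its called genes on the right, the amino acid and mitochondrial classes on the left.

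Amino acid carriers held the lowest p-value of the group. Slc7a6 encodes y+LAT2, a light chain that exchanges cationic for neutral amino acids when bound to the heavy chain Slc3a2 (CD98). Its gene is at chr8:106168857-106198706 on the plus strand of GRCm38. Slc7a6 was at 40.02 and 41.84 FPKM in the control and at 25.99 and 27.82 in the KO libraries. The groups did not overlap, and the mean was 34.3% lower in KO (log2 fold change -0.59 ± 0.13 SE, adjusted p = 0.10). Slc7a1, the cationic amino acid transporter CAT1 (chr5:148327410-148399904, minus strand), imports arginine and lysine. It was at 18.6 and 24.8 FPKM in control and at 16.9 and 11.9 in KO, so the higher KO library was close to the lower control library (log2 fold change -0.57 ± 0.22 SE, adjusted p = 0.265).

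Among the genes lower in KO, the windows of Slc25a25 and Slc9a3r1 are not shown, nor is another window each of Slc7a6 and Slc7a1. Shown are the 300 bases around a start of each of these amino acid carriers, and of the mitochondrial carrier Slc25a39 described below. They run from 250 bases before to 50 after the RefSeq start, on GRCm38.p6, 5′ to 3′ on the strand of the gene. Capitals mark the metal response cores TGCACNC or TGCGCNC on either strand, and a sequence without capitals held none of the motifs searched.
Slc7a6, chr8:106168604-106168903, plus strand: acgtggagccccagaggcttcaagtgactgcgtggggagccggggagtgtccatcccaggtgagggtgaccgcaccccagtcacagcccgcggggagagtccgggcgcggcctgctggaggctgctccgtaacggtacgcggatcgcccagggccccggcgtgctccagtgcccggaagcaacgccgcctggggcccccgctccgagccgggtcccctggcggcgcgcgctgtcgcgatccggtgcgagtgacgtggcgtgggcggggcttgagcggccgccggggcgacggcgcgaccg
Slc7a1, chr5:148399855-148400154, minus strand: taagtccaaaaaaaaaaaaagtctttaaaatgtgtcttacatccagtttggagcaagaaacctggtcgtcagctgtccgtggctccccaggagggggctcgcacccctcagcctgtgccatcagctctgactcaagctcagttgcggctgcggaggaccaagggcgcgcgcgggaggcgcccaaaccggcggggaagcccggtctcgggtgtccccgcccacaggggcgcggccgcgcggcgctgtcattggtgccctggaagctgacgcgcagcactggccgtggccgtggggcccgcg
Slc25a39, chr11:102407468-102407767, minus strand: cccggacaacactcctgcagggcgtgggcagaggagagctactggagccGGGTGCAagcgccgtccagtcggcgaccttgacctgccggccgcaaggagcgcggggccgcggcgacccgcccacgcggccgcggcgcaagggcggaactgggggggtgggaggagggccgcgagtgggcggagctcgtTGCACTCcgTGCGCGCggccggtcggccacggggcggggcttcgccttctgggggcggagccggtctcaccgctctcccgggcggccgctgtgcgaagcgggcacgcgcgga

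RefSeq windows were matched for 77 of the 100 genes, some with several starts, and were searched on both strands for 4 sets of letters. The E-box CACGTG was in a window of 9 of the 77 (11.7%) and of 8.09% of all 27025 genes with a window, and of no called gene. TGATGNAAN, an amino acid response element, was found for 2 of 77 (2.60%) and for 4.50% of all genes; Slc9a9 was the called gene with it. The metal response core TGCACNC was found for 19 (24.7%) and for 14.2% of all genes, with Slc9a3r1 and Slc25a39 among them, and TGCGCNC for 20 (26%) and for 17% of all genes, with Slc25a25 and Slc25a39. The 27025 genes include genes not expressed here, and a gene with several windows counted when any of them matched. The shares are therefore not of like sets, and no test of them was run. In Slc25a39 the matches began 201, 62 and 53 bases before the start. No window of Slc7a6, Slc7a1, Slc39a9 or Slc39a10 held any of them, which says only that these letters are not in these windows.

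The heavy chain gene was not called. Slc3a2, the gene with the highest level of the 100, was at 1171 and 1133 FPKM in control and at 1274 and 1040 in KO, and the KO libraries lay on either side of the control libraries (log2 fold change 0.00, 95% confidence interval -0.30 to 0.30, adjusted p = 0.997). Summed over 6 light chains of Slc3a2 (Slc7a5, Slc7a6, Slc7a7, Slc7a8, Slc7a10 and Slc7a11), the level was 49.7 and 50.9 in control and 33.6 and 36.4 in KO. Most of that sum was Slc7a6. Slc7a5, the leucine-importing light chain LAT1, had 5.21 and 4.65 in control and 3.33 and 3.49 in KO, below the level that defines the group. Slc3a2 was thus 22.2 to 23.6 times the light chain sum in control and 28.6 to 37.9 times in KO, a ratio of levels for which no test was run.

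Of 10 genes listed for amino acid import in activated T cells, 6 were tested. Of these 2 were lower in KO and none was higher. All 6 estimates were below 0, with a median of -0.16, but that of Slc3a2 was only -0.0011. Over all genes tested 7.57% were lower, 8.61% higher and 50.6% of estimates below 0. Besides those above, Slc1a5, the glutamine transporter ASCT2, was at 133.9 and 192.8 FPKM in control and 173.3 and 115.8 in KO. KO 1 lay inside the control range and KO 2 below it, and the interval of the difference ran from -0.72 to 0.35 log2 units. The sodium-coupled glutamine carriers Slc38a2 and Slc38a1 had log2 fold changes of -0.15 (adjusted p = 0.601) and -0.07 (adjusted p = 0.85). Slc38a1 was at 25.3 and 26.9 FPKM in control and 24.9 and 24.6 in KO. In the class as a whole, 12 genes, the median was -0.07; 4 estimates were positive, led by Slc43a3 (0.35, adjusted p = 0.379), a carrier of purine nucleobases placed here by its family number, and Slc43a2 (0.29, adjusted p = 0.724). Slc38a9, the arginine sensor of the lysosome, had 8.98 and 9.90 FPKM in control and 10.9 and 11.3 in KO (adjusted p = 0.592).

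The machinery that reads amino acids at the lysosome was listed separately, with 35 symbols of which 23 genes were tested. Here 3 were higher in KO and 3 lower, against 8.61% and 7.57% of all genes tested. Lamtor2 and Lamtor3, subunits of the Ragulator scaffold that anchors mTORC1 to the lysosome, rose from 104.9 and 104.8 to 142.6 and 159 FPKM (log2 fold change 0.52, adjusted p = 0.0979) and from 29.4 and 25.7 to 39.8 and 44.6 (0.60, adjusted p = 0.117). Mtor, the kinase, was at 25.3 and 21.8 in control and 30.7 and 32.8 in KO (0.42, adjusted p = 0.226). In these 3 genes both KO libraries lay above both controls. Flcn, the GTPase-activating protein folliculin, was lower (-0.60, adjusted p = 0.238), as were Sesn3, a sestrin (-0.69, adjusted p = 0.13), and Itfg2, a subunit of the KICSTOR complex (-0.45, adjusted p = 0.272). Sesn3 went from 31.3 and 29.4 FPKM to 21.35 and 15.95. No gene of this list passed an adjusted p of 0.05, and its median log2 fold change was 0.01.

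Of the 13 zinc carriers, 2 were called, both higher in KO, while 8.61% of all genes tested were higher and 7.57% lower. In the class 5 estimates were positive and 8 negative, with a median of -0.0039. Slc39a10 (chr1:46807544-46892852, minus strand) encodes ZIP10, which imports zinc across the plasma membrane. It was at 4.12 and 4.68 FPKM in control and at 7.58 and 6.73 in KO, without overlap and 62.6% higher by the means (log2 fold change 0.59 ± 0.21 SE, adjusted p = 0.242). It was taken into the group and tested only because of its KO level, so its call is a description. Slc39a9 (chr12:80643883-80683342, plus strand) encodes ZIP9, a zinc transporter of the Golgi and plasma membrane. It was at 8.98 and 9.48 in control and 12.9 and 13.3 in KO (0.46 ± 0.17 SE, adjusted p = 0.242). The exons of Slc39a9 share 459 bases, 4.5% of its exon bases, with the opposite-strand gene Erh, at 246.5 FPKM, and the strand setting of the library is not given in the sources used here.

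The other 11 zinc genes showed no call. Slc39a1, the zinc importer with the highest level, was at 137.8 and 96.7 in control and 124.9 and 141.7 in KO, with the KO pools inside and just above the control range (0.20, adjusted p = 0.619). Slc39a7, which releases zinc from the endoplasmic reticulum, was at 45.3 and 57.6 and at 48.2 and 38.9 (-0.23, adjusted p = 0.542). Gm20427, a same-strand gene at 0.26 FPKM, covers 80.7% of the exon bases of Slc39a7, so their reads may be split. The lowest estimate of the class was that of Slc39a8, ZIP8, with 10.1 and 9.74 in control and 7.53 and 8.16 in KO (-0.31, adjusted p = 0.451). The zinc exporters into the secretory pathway Slc30a5, Slc30a6 and Slc30a7 had estimates between -0.06 and 0.03, and Slc30a7 spread from 8.67 to 18.9 between the KO pools. Of the genes that buffer and sense zinc, the metallothioneins Mt1 and Mt2 had log2 fold changes of -0.35 (adjusted p = 0.625) and -0.39 (adjusted p = 0.58), with 76.0 and 47.3 FPKM of Mt1 in control and 34.3 and 63.7 in KO. Mtf1, the zinc-sensing transcription factor, had 0.06 (adjusted p = 0.864).

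The 21 mitochondrial carriers were split between 10 positive and 11 negative estimates, with a median of -0.01. Slc25a25 (chr2:32414487-32451445, minus strand), a calcium-regulated carrier of ATP-Mg and phosphate, was at 19.3 and 25.6 FPKM in control and at 17.98 and 11.74 in KO (-0.58 ± 0.23 SE, adjusted p = 0.285). Slc25a39 (chr11:102402985-102407946, minus strand), needed for glutathione import into mitochondria, was at 31.1 and 41.2 and at 29.7 and 20.9 (-0.50 ± 0.21 SE, adjusted p = 0.296). In both genes KO 1 was next to control 1, and KO 2 and control 2 made the difference. The opposite-strand gene Naif1 (2.81 FPKM) shares 4.8% of the exon bases of Slc25a25. The interval of Slc25a25 ran from -1.12 to -0.04 and that of Slc25a39 from -0.99 to -0.02.

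Carriers that serve oxidative phosphorylation were at high levels in both groups, and none of those below was called. Slc25a3, the phosphate carrier, was at 1143 and 1005 FPKM in control and 989.1 and 958.9 in KO, which did not overlap (-0.14, interval -0.40 to 0.13, adjusted p = 0.598). Slc25a5, an ADP/ATP exchanger, was at 941.6 and 832 and at 973.3 and 989.1, also without overlap but in the other direction (0.15, interval -0.11 to 0.41, adjusted p = 0.564); 98.3% identical bases over 71.5% of its transcript are found in Gm5560, at 2.76 FPKM. Slc25a36, a pyrimidine nucleotide carrier, ran only from 83.9 to 90.7 over the 4 libraries (-0.06, adjusted p = 0.859). Slc25a51, the NAD+ carrier, lay just beyond the threshold, with 65.6 and 70.7 in control and 53.4 and 58.9 in KO (-0.28, adjusted p = 0.327). Slc25a22, a glutamate carrier, had the widest interval, from -1.67 to 0.81, with 3.39 and 9.72 in control and 7.05 and 2.21 in KO.

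Among 8 ion and pH carriers, Slc9a9 was called. It encodes NHE9, a sodium/proton exchanger of endosomes, at chr9:94669909-95230445 on the plus strand. It was at 13.7 and 12.4 FPKM in control and 18.1 and 17.6 in KO, with little spread within either group (0.42 ± 0.15 SE, adjusted p = 0.249). Slc9a9 is 15.3 Mb from Setd2 on the same chromosome. Of 4 solute carriers chosen here that lie within 20 Mb of Setd2, it was the 1 that was called and the farthest from Setd2. Over all genes tested 16.2% were called. Slc6a20a, left out by name, is also on this chromosome (chr9:123634770-123678885). It was called higher in KO (2.18, adjusted p = 0.048), but was tested only because of its KO level. The share of all genes called near Setd2 was not computed. The phosphate importer Slc20a1, the highest of the class, was at 149.2 and 106.1 and at 126.5 and 112 (-0.08, adjusted p = 0.873). Slc9a8, a Golgi exchanger of the same family, was at 12.95 and 11.77 and at 13.45 and 14.76 (0.18, adjusted p = 0.642).

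The adaptor Slc9a3r1 (NHERF1, chr11:115163341-115181181, plus strand) links membrane proteins to the actin cortex. It was at 72.2 and 104.3 FPKM in control and 64.8 and 50.2 in KO (-0.60 ± 0.20 SE, adjusted p = 0.222). The other adaptor, Slc4a1ap, had 17.3 and 19.2 and 14.6 and 16.1 (-0.24, adjusted p = 0.498).

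No gene of the remaining 6 classes was called. Of 6 sugar and inositol carriers, the estimates nearest the threshold were those of Slc5a3, which imports myo-inositol (-0.36, adjusted p = 0.323), Slc50a1, a sugar carrier of the SWEET family (0.30, adjusted p = 0.327), and Slc2a6, GLUT6 (-0.46, adjusted p = 0.334). Slc50a1 was at 52.4 and 63.6 FPKM in control and 73.7 and 69.5 in KO, and Slc5a3 at 27.3 and 22.2 and at 18.8 and 19.2; neither pair of groups overlapped. Slc5a3 shares 1.5% of its exon bases with Mrps6, a same-strand gene at 92 FPKM. Slc37a3, the second highest of the class, had 0.12 (adjusted p = 0.729). Of 16 nucleotide sugar and Golgi carriers, 8 estimates were positive and 8 negative. Slc35a4 had 97.6 and 114.2 in control and 98.2 and 72.6 in KO (-0.32, adjusted p = 0.402), and Slc35b3, which brings the sulphate donor PAPS into the Golgi, 52.7 and 44.2 and 54.9 and 61.6 (0.26, adjusted p = 0.409).

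The nucleoside and vitamin carriers, 8 genes, had no gene whose groups were apart. Over all genes tested both KO libraries lay above both controls for 24.2% and below them for 22.9%. Slc29a1, the equilibrative nucleoside transporter ENT1, was at 73.6 and 83.5 FPKM in control and at 92.0 and 68.8 in KO (0.02, interval -0.36 to 0.40, adjusted p = 0.97), and Slc28a2, a concentrative nucleoside transporter, had 0.19 (adjusted p = 0.613). Slc28a2 is 95.9% identical over 95.8% of its transcript to Gm14085 (3.47 FPKM), so reads could be split between them. Slc19a2, a thiamine importer, was the steadiest, at 20.65 and 20.98 and at 20.40 and 21.58. Of 3 monocarboxylate and acyl carriers, Slc16a6 (-0.23, adjusted p = 0.546) shares 21.5% of its exon bases with the opposite-strand gene Amz2, at 75.6 FPKM, and the choline transporter-like Slc44a2 had -0.18 (adjusted p = 0.728). Among 7 organic ion, peptide and lysosomal carriers, the lysosomal peptide carrier Slc15a3 was at 18.5 and 19.6 in control and 15.2 and 16.2 in KO (-0.27, adjusted p = 0.423), and Slc10a3, which overlaps Ubl4a on the same strand, had 0.19 (adjusted p = 0.668). Of 4 metal and heme carriers, the heme carrier Slc48a1 had 0.30 (adjusted p = 0.522) and the copper importer Slc31a1 0.22 (adjusted p = 0.57).

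**Figure D3:**
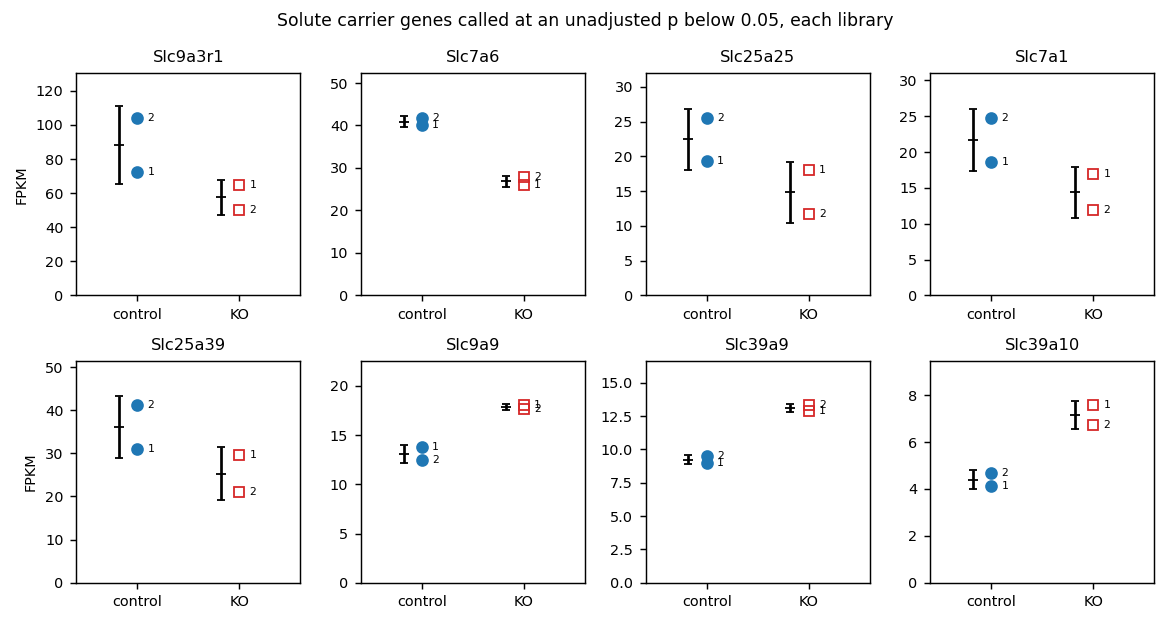
FPKM of the 8 genes with an unadjusted p below 0.05 in each library (filled circles, control; open squares, KO; numbers, replicate), with mean and SD (n = 2) to the left; each axis starts at 0. The pools of Slc7a6, Slc39a9 and Slc9a9 lie close within each group, while Slc9a3r1, Slc25a25, Slc7a1 and Slc25a39 have control 2 highest and KO 2 lowest.

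The number of called genes depended on single libraries: 3 were higher with all libraries, but 5 without control 1 and none without KO 1 or KO 2, and 5 were lower, but 3 without control 2 and 2 without KO 2. Over all genes tested the higher share also moved, from 8.61% to 8.51% without control 1, 5.31% without KO 1 and 4.32% without KO 2, and the lower share from 7.57% to 6.85% without control 2 and 4.11% without KO 2. In Slc9a3r1, Slc7a1, Slc25a25 and Slc25a39, control 2 was the highest and KO 2 the lowest library. Without control 2 the log2 fold changes of these 4 genes were -0.33, -0.37, -0.39 and -0.31, and without KO 2 they were -0.42, -0.33, -0.29 and -0.26; in either case none of the 4 was called. Slc7a6 stayed called whichever library was left out, with log2 fold changes from -0.64 to -0.54. Slc39a9 lost the call when any 1 of the libraries was left out (0.43 to 0.50), Slc39a10 without control 1, KO 1 or KO 2 (0.52, 0.52 and 0.67) and Slc9a9 without control 2, KO 1 or KO 2 (0.35, 0.41 and 0.44).

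The same pools stood out over the whole group of 100. Control 2 held the highest value for 39 genes, against 26.5% of all genes tested, and KO 2 the lowest for 36, against 26.6%. KO 1 was highest for 25 and control 1 and KO 2 for 18 each. The summed FPKM of the 100 genes was 6030 and 5969 in control and 6179 and 5611 in KO, or 0.724% to 0.797% of all FPKM in a library.

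**Figure D4:**
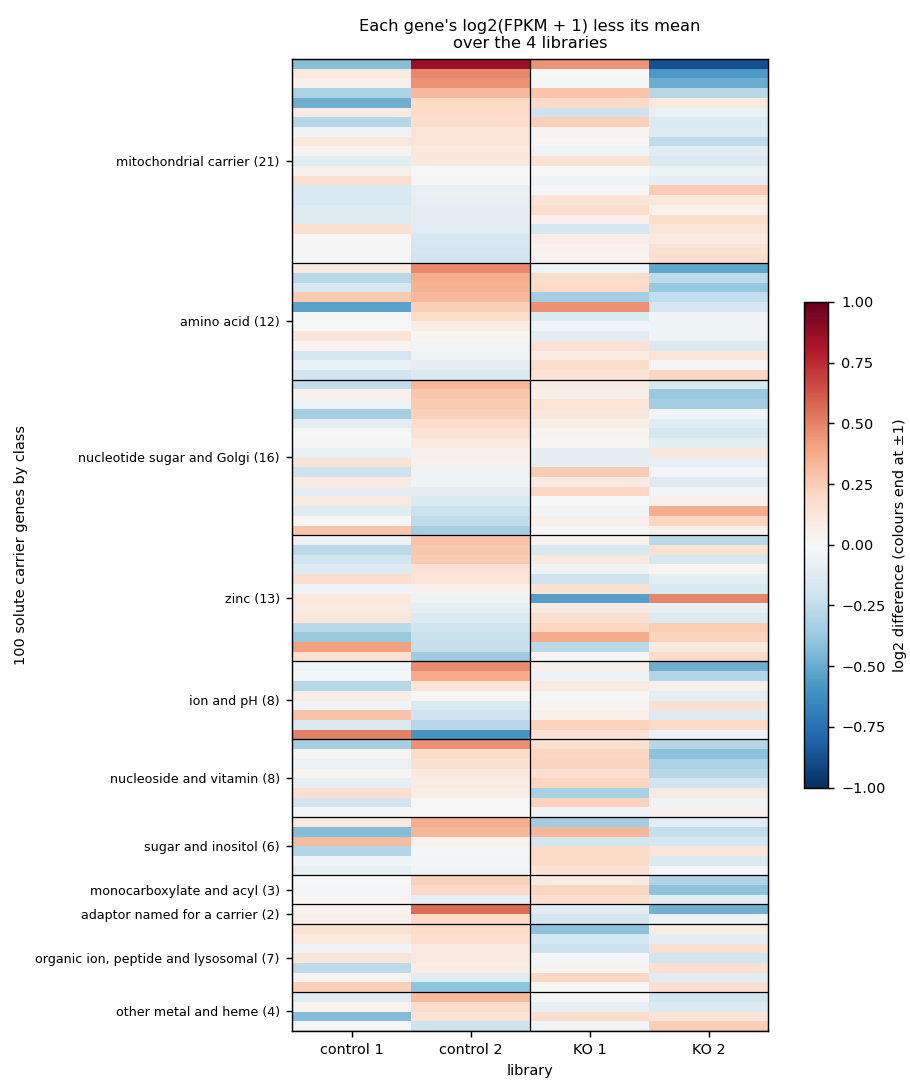
Heat map of log2(FPKM + 1) of each gene (rows, by class) less its mean over the 4 libraries (columns); red is above and blue below the mean, and the colours end at 1 log2 unit. Many rows are red in control 2 and blue in KO 2, and fewer have both control columns of 1 colour and both KO columns of the other.

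Carriers that do not bear an Slc symbol, and the proteins that work with carriers, were listed for comparison. Of 42 carriers with other names, 25 were tested; 4 were higher in KO and 1 lower, against 8.61% and 7.57% of all genes tested, none at an adjusted p below 0.05, with a median log2 fold change of 0.05. Pqlc3 rose from 22.2 and 23.4 to 32.5 and 34.4 FPKM (0.53, adjusted p = 0.133), and the major facilitator genes Mfsd6 (0.54, adjusted p = 0.263), Mfsd10 (0.56, adjusted p = 0.292) and Mfsd11 (0.68, adjusted p = 0.285) were higher. Mfsd6 was tested only because of its KO level (mean of 4.69 in control and 7.29 in KO), so a difference was built into its being tested. Pqlc1 fell from 252 and 260 to 209.4 and 207.7 (-0.29, adjusted p = 0.232). The mitochondrial pyruvate carrier subunits Mpc1 and Mpc2 had -0.06 (adjusted p = 0.837) and 0.22 (adjusted p = 0.41).

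Of 23 pumps and carrier partners, 20 were tested; 5 were higher in KO and 1 lower, against 8.61% and 7.57% of all genes tested, none at an adjusted p below 0.05, with a median of 0.04. Abcg2 passed the filter through KO alone and Atp1b1 through control alone, so a difference was built into their being tested. Abcg2, an ATP-driven exporter of organic molecules, rose from 3.80 and 3.32 to 9.23 and 9.80 FPKM (1.21 ± 0.21 SE, adjusted p = 0.065), and the exporter Abcb1b from 32.02 and 28.80 to 38.81 and 52.78 (0.56, adjusted p = 0.197). Emb, embigin, a chaperone of monocarboxylate transporters, rose from 1183 in both controls to 1431 and 1572 (0.34, adjusted p = 0.212). Lrrc8a, the essential subunit of volume-regulated anion channels (0.49, adjusted p = 0.212), and Ostm1, the partner of a lysosomal chloride exchanger (0.37, adjusted p = 0.222), were also higher. Atp1b1, a subunit of the sodium pump, fell from 5.48 and 5.34 to 2.87 and 2.54 (-0.79, adjusted p = 0.189). Basigin (Bsg), the other chaperone of monocarboxylate transporters, had -0.15 (adjusted p = 0.545).

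The transporters left out by name included a call in each direction. The lactate transporter Slc16a1 was at 25.1 and 26.9 FPKM in control and 18.2 and 16.7 in KO (-0.55, adjusted p = 0.143), and Slc6a20a, a proline carrier tested only because of its KO level, at 0.22 and 0.44 and at 6.12 and 4.04 (2.18, adjusted p = 0.048). The glucose transporters Slc2a1 (-0.07, adjusted p = 0.871) and Slc2a3 (-0.06, adjusted p = 0.903), the lactate exporter Slc16a3 (-0.26, adjusted p = 0.843) and the iron importer Slc11a2 (0.01, adjusted p = 0.984) were not called, and the iron exporter Slc40a1 was listed at 0.99 or less.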

How the data were processed

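Treg cells of the large intestine were profiled by poly(A) RNA-seq in 2 control and 2 KO libraries. The authors mapped paired reads of 150 bp with STAR 2.5 to GRCm38 and quantified genes with RSEM 1.2 (versions per the submitters' processing notes), and deposited FPKM for 53379 genes at 2 decimals. Values at the same rank are nearly equal in the 4 columns, as quantile normalization gives, a step the methods do not name; depth is unknown and no count test was run. Gene types and positions came from a GENCODE annotation of GRCm38 (53274 identifiers found), and promoter windows from RefSeq.

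Protein-coding genes whose mean exceeded 5 FPKM in control or KO (7639) were fitted with limma 3.58.1 in R 4.3.3 to log2(FPKM + 1), KO against control, without covariate and with a trend; Benjamini-Hochberg adjustment ran over all of them. A fold change on this scale understates that of low genes. Data were simulated for the 7639 genes, with 200 of them changed by a log2 fold change of 1. The fit called 98% of those 200 at an unadjusted and 64.5% at an adjusted p below 0.05. The simulated libraries varied independently, and the solute carrier differences lay between -0.60 and 0.59. These shares therefore do not measure power at those differences. The lower limit of overlap between transcripts was 90% identity over 30% of the length (BLAST 2.17.0). Scaling, filters, pseudocounts, blocks and left-out libraries were varied.

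Genes named are the called ones, the 10 highest, those of the amino acid import list, the 2 highest of each class, those at the edge of the choice, the transporters left out and the called genes of the other lists; the others named (Slc5a3, Slc2a6, Slc19a2, Slc25a22, Slc25a51, Slc30a5, Slc30a6, Slc30a7, Slc38a9, Slc39a8, Slc43a2, Slc43a3, Slc9a8, the light chains, Mpc1, Mpc2, Bsg, Mt1, Mt2 and Mtf1) were chosen after their values were seen. One gene that the rule names is not reported here. The genes and lists were chosen with earlier results of these data known. Classes follow family numbers.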

Additional observations from a re-analysis of the deposited data

How the results depend on the processing

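The number of solute carriers higher in KO at an unadjusted p below 0.05 went from 3 to 5 without a filter on FPKM. The share higher over all genes went from 8.61% to 5.48%. When solute carriers with a mean of at least 2 were taken, 6 were higher in the fit with a filter of 1, beside 7.94% of all genes in that fit. The number lower went from 5 to 3 with all gene types, and the share over all genes from 7.57% to 6.55%. The cause was not tested. With all 4 libraries, KO lay above control for 20 and below for 24 of the 100, against 24.2% and 22.9% of all genes tested. Those shares are not given without 1 library, so the ranges that follow are descriptions. The shares of all genes called also moved without 1 library, as given above. Leaving out 1 library at a time, where the lone sample is assumed to vary like the other group, gave 0 to 5 higher and 2 to 7 lower, a median log2 fold change from -0.1073 to 0.0832, 27 to 36 genes with KO above and 31 to 47 with KO below control (fewer libraries have to agree), and 6 to 11 higher and 3 to 5 lower in the 4 other lists.

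Whether replicate numbers mark pairs cannot be settled with 2 libraries per group. Deviations of same-numbered libraries correlated at r = -0.305 over all genes tested. With the replicate block the counts were 0 higher and 4 lower (5.49% and 4.94% of all genes tested), and 3 lower in the 4 other lists. Because of that sign, control 1 with KO 2 and control 2 with KO 1 were also taken as blocks after seeing the data, which gave 5 higher and 11 lower (13.2% and 12.9% of all genes tested), of which 0 and 5 at an adjusted p below 0.05 (6.09% of all genes tested), and 9 lower in the 4 other lists.

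Among named genes without a call, Slc3a2 changed sign with quantile-normalized values (0.0012). Leaving out a library turned the sign of 8: Slc3a2 (-0.15 to 0.14), Slc1a5 (-0.47 to 0.11), Slc39a1 (-0.0505 to 0.4563), Slc20a1 (-0.32 to 0.16), Slc29a1 (-0.19 to 0.23), Slc44a2 (-0.50 to 0.13), Slc35e1 (-0.0679 to 0.1545) and Slc2a8 (-0.29 to 0.48). With all 4 libraries, 389 of 408 values for the 34 named genes kept their direction and side of the threshold; 12 lost and 6 gained the call.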

Other observations

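Apart from the transporters left out by name (Slc6a20a and Slc40a1 at this level), another 263 solute carrier genes had a mean below 5 FPKM, of which 53 were listed at 0 in all 4 libraries and 55 had a mean of 1 or more. In the fit with a filter of 1 FPKM in either group, which tested 58 of them among 10424 genes, 5 were higher in KO and 2 lower at an unadjusted p below 0.05, beside 14.8% of all genes in that fit, and none passed an adjusted p of 0.05, which 27 genes did. Slc6a20a, not among the 58, was higher in that fit (2.18, adjusted p = 0.0391).

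Of the 58, the one with the smallest p was Slc1a1, a glutamate and cysteine importer, at 0.51 and 0.84 FPKM in control and 2.62 and 3.16 in KO (log2 fold change 1.22 ± 0.27 SE, adjusted p = 0.119). Slc27a1, a fatty acid carrier, was at 1.08 and 1.51 and at 2.54 and 4.65 (0.97, adjusted p = 0.227), and Slc17a5, the lysosomal sialic acid exporter, at 3.01 and 2.20 and at 4.63 and 4.34 (0.61, adjusted p = 0.288). Slc22a21 (0.68, adjusted p = 0.27) and Slc35f5 (0.80, adjusted p = 0.243) were also higher. Slc38a6, of the family of glutamine carriers, was at 3.64 and 2.54 and at 1.61 and 1.55 (-0.65, adjusted p = 0.301), and Slc26a11 at 2.33 and 1.91 and at 0.66 and 1.19 (-0.71, adjusted p = 0.301). In these 7 genes, which were picked by their p, the groups did not overlap. Slc1a1 and Slc35f5 passed the filter of 1 FPKM only through KO (means of 0.675 and 0.80 in control). Slc26a11 passed it only through control (mean of 0.925 in KO). A difference was built into these genes being tested. The leucine importers Slc7a5 and Slc43a1 were nearby without a call, with log2 fold changes of -0.43 (adjusted p = 0.402) and -0.66 (adjusted p = 0.356).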
